A study of Mus musculus with 2 samples.

Results

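Neuropeptides and acetylcholine carry signals between nerves, epithelium and immune cells of the gut, and 9 genes of this exchange were examined in regulatory innate lymphoid cells (ILCregs). They were chosen by name. The peptide precursor genes were Vip, Nmu, Calca and Tac1, the receptor genes Vipr1, Vipr2, Nmur1 and Ramp1, and the enzyme gene Chat. Of these 9 genes, 8 were measured by a feature of the array with 1 gene symbol, among 28281 genes named in this way. Each of the 8 had 1 feature. Calca, which encodes calcitonin and the alpha form of calcitonin gene-related peptide (CGRP), was matched to no feature and was not analysed here.

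The donors were IL-10-GFP knockin mice of the C57BL/6 strain aged 8 weeks, in which a green fluorescent protein sequence sits at the interleukin 10 locus, and the cells were sorted from their small intestine. The mice were housed pathogen-free, and no treatment is stated. The series holds 1 group, ILCreg, with 2 whole-transcript arrays, called replicate 1 and replicate 2. The labels do not say whether these came from separate mice, pools or sorts, and the difference between the arrays may thus be technical. The sorting gates are not stated in the sources used here. There is no other group, so conditions could not be compared by a test and the text holds no p-value.

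Vasoactive intestinal peptide (VIP) is released by enteric neurons and acts through the receptors VPAC1 and VPAC2, which couple mainly to Gs and cyclic AMP. Neuromedin U acts on lymphocytes through NMUR1, a receptor coupled to Gq and calcium, which in mice marks ILC2s, the innate lymphoid cells of type 2 responses. CGRP binds a receptor made of the calcitonin receptor-like chain and RAMP1, and substance P, made from the Tac1 precursor, binds neurokinin receptors. Choline acetyltransferase, encoded by Chat, makes acetylcholine in neurons, in tuft cells and in some lymphocytes.

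The promoters of Vip and of its receptor genes are shown because these 3 genes were the members with signal above the background threshold on at least 1 array. Each is the RefSeq window of 300 bases on GRCm38.p6, from 250 bases before to 50 after the start site used there, 5′ to 3′. Capitals mark TGACG or its reverse complement CGTCA, the core motif of the cyclic AMP response element. This DNA element is bound by CREB family factors downstream of Gs. The Vip window is chr10:5638968-5639267 on the plus strand, that of Vipr2 is chr12:116077476-116077775 on the plus strand, and that of Vipr1 is chr9:121642466-121642765 on the plus strand.
Vip: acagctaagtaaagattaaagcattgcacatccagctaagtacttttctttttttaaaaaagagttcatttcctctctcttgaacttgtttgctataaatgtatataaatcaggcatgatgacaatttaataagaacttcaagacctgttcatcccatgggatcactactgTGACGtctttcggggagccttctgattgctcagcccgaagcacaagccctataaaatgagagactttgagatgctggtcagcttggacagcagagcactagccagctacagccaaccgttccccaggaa
Vipr2: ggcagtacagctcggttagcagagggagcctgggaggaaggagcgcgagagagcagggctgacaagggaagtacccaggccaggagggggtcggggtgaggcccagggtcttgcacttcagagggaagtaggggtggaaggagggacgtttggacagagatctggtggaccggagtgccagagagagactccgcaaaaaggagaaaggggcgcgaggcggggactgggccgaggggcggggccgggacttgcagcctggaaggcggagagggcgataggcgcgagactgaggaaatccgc
Vipr1: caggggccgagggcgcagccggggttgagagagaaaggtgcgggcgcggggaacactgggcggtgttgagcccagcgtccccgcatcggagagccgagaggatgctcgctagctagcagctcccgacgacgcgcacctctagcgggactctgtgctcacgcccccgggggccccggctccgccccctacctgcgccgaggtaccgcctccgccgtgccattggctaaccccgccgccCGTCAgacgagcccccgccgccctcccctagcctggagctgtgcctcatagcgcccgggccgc
The Vip window held the core motif once, beginning 79 bases upstream of the start site, and the Vipr1 window held it once, 13 bases upstream. The Vipr2 window held none. Over all members with a promoter in the table, Calca included, 7 of 10 windows of the 9 genes had at least 1 core motif, against 20.8% of 32851 windows of the same length in RefSeq. Tac1 had a core motif at 197 and at 43 bases upstream, and Nmu, Calca and Chat had 1 each at 114, 65 and 171 bases upstream. That of Ramp1 began 10 bases after the start site, and neither of the windows of Nmur1 had one. The full palindrome TGACGTCA, which contains the core motif on both strands, was in 0 of the 10 windows of the members and in 1.79% of all windows. These matches describe letters and say nothing of factor binding.

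The deposited values are read here as log2 signal because of their range, since the log base is not stated. Probes differ in affinity, so the signals of different genes do not order their transcripts by abundance. Background was gauged on the same arrays from 1678 genes of olfactory, vomeronasal and taste receptors, called chemoreceptor genes, which were taken as largely silent in these cells. Their 95th percentile, 6.74 for replicate 1 and 6.19 for replicate 2, was the threshold, and a gene was counted as above it only if it passed on both arrays. A gene below it could not be told from background, which does not show that the transcript is absent.

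Among the members, the genes of VIP and of its receptor VPAC2 were above background. Vip and Vipr2 exceeded the threshold on both arrays, Vipr1 did on 1 array, and Nmu, Nmur1, Tac1, Ramp1 and Chat did on neither. The 2 members of 8 that passed on both arrays compare with 31.7% of all named genes, 38.9% of protein-coding genes outside the chemoreceptor set and 2.44% of the chemoreceptor genes. The share of members was thus no higher than that of genes at large. The shares of 31.7% and 38.9% are also the comparison for each count of listed genes below. The median of the members' mean signals was 5.35, against 5.43 over all named genes and 6.06 over protein-coding genes outside the chemoreceptor set.

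**Figure D1:**
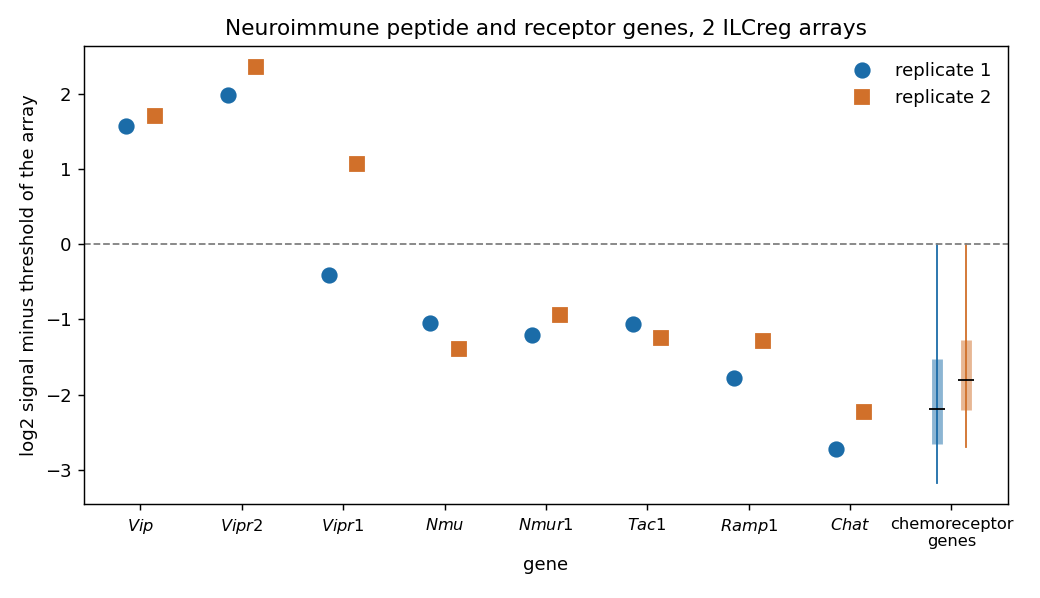
Log2 signal of each measured member minus the threshold of the array (vertical axis), for replicate 1 (circles) and replicate 2 (squares), beside the chemoreceptor genes, drawn as the 5th to 95th percentile (thin line), the middle quartiles (thick bar) and the median (dash). Vip and Vipr2 lie above the dashed line at 0 on both arrays, Vipr1 lies on either side of it, and the other 5 lie below it.

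Vip, the precursor gene of VIP, had a log2 signal of 8.32 on replicate 1 and 7.91 on replicate 2, a mean of 8.11 ± 0.30 (SD, n = 2). Both values were clear of the threshold, by 1.58 and 1.72 on the log2 scale. Only 8 and 4 of the 1678 chemoreceptor genes gave a higher signal on the same arrays. VIP is mainly a neuronal peptide in the gut. Of 11 measured enteric neuron markers 0 passed on both arrays, against 31.7% of all named genes, with mean signals from 3.32 to 6.13. The pan-neuronal RNA-binding protein gene Elavl4 had 4.37 ± 0.25, the axon protein gene Uchl1 6.02 ± 0.06 and the synaptic gene Snap25 6.13 ± 0.21. Phox2a, a factor of autonomic neurons, had 3.32 ± 0.03 and the nitric oxide synthase gene Nos1 4.09 on both arrays, the 2 lowest of the list. Enteric glia markers passed in 0 of 4 cases, with Gfap at 5.31 ± 0.16, S100b at 4.83, Foxd3 at 4.69 ± 0.04 and Sox10 at 4.44 ± 0.01. At the 90th percentile of the chemoreceptor genes 1 of the neuron markers passed. The cells that gave the Vip signal are not shown by these arrays.

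Vipr2, which encodes VPAC2, had signals of 8.73 and 8.55, a mean of 8.64 ± 0.12 (SD, n = 2). It stood above the threshold by 1.99 on replicate 1 and 2.37 on replicate 2, and 5 and 2 chemoreceptor genes were higher. In mice VPAC2 has been described on ILC2s and ILC3s, and it is also found on smooth muscle. All 8 measured stromal and smooth muscle markers passed on these arrays, against 31.7% of all named genes, with mean signals from 8.77 to 19.83. Myh11 and Des, named after their values were seen, had 10.36 ± 0.07 and 8.77 ± 0.27. Their part in the Vipr2 signal was not tested.

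Vipr1, which encodes VPAC1, had 6.34 on replicate 1 and 7.26 on replicate 2, a mean of 6.80 ± 0.65 (SD, n = 2). It missed the threshold by 0.40 on the first of these arrays and exceeded it by 1.07 on the other, where 15 chemoreceptor genes were higher, against 131 on replicate 1. Of all named genes, 7.53% likewise passed on 1 array only. The threshold was lower on replicate 2, where 10925 named genes passed, against 9147 on replicate 1. The difference of Vipr1 between the arrays was 0.97 on the log2 scale after the median difference of all named genes was subtracted. It was the largest of the members, and 3.77% of named genes differed by more. VPAC1 is known from T cells, macrophages and epithelium. After the same centring, Vipr1 was the only member that read higher on replicate 2, and the other 7 read higher on replicate 1. For Ramp1 (-0.008) and Chat (-0.015) that difference was near 0, and under quantile normalization both had the other sign. Of the markers, 4 of 7 for T cells, 5 of 9 for macrophages and 4 of 11 for epithelium read higher on replicate 2. So did 14140 of 28281 named genes, a share that the centring sets. The part of these cells in the Vipr1 difference was not tested.

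The third receptor of the family, PAC1, is encoded by Adcyap1r1 and prefers the related peptide PACAP. Adcyap1r1 passed, with 7.42 and 6.71 and a mean of 7.07 ± 0.50, but not at the 99th percentile of the chemoreceptor genes (7.91 and 7.21). Its ligand gene Adcyap1 was at 3.41 ± 0.14, below most chemoreceptor genes on both arrays.

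Nmu, the neuromedin U precursor gene, had 5.70 on replicate 1 and 4.79 on replicate 2, a mean of 5.25 ± 0.64 (SD, n = 2). Its receptor gene Nmur1 had 5.54 and 5.25, a mean of 5.40 ± 0.21. Both lay under the threshold on both arrays, Nmu by 1.04 and 1.40 and Nmur1 by 1.20 and 0.94, and 310 and 280 chemoreceptor genes were higher than Nmur1. The second neuromedin U receptor gene, Nmur2, was at 4.74 ± 0.15, and Nms, which encodes the related peptide neuromedin S, at 3.93 ± 0.01. Of 6 measured ILC2 markers 1 passed, against 31.7% of all named genes, and this was the prostaglandin D synthase gene Hpgds at 9.07 ± 0.28, while Il17rb had 5.90 ± 0.39, Il13 5.10 ± 0.23 and Arg1 5.04 ± 0.33. Gata3 and Il1rl1, both central to ILC2s, were not analysed here. In bulk samples such as these, fewer cells of a type and less RNA per cell cannot be told apart.

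On the CGRP side, Ramp1, the chain that makes the receptor specific for CGRP, had 4.96 and 4.90, a mean of 4.93 ± 0.04 (SD, n = 2). It lay 1.78 and 1.28 under the threshold, with 557 and 423 chemoreceptor genes higher. Calcb, the gene of the beta form of CGRP, was at 4.43 ± 0.08. By contrast, the partner chain gene Calcrl passed with 8.47 and 9.17 (8.82 ± 0.49), and so did Ramp3 with 9.47 and 10.08 (9.77 ± 0.43). Ramp3, like Ramp2, turns the Calcrl chain into a receptor for adrenomedullin. The adrenomedullin gene Adm passed as well, with 10.81 and 10.50 (10.66 ± 0.22). Ramp2, with 6.54 and 6.27, passed on replicate 2 only. Its signal was lower on that array, and so was the threshold, at 6.19 against 6.74. Calcrl, Ramp3 and Adm were thus above background on both arrays, and Ramp1 and Calcb were on neither. Calcrl and Ramp2 are also genes of endothelium. Of 9 endothelial markers 4 passed, against 31.7% of all named genes, among them Pecam1 with 7.99 ± 0.14 and Eng with 8.38 ± 0.48. Vwf, at 5.28 ± 0.13, and Emcn, at 5.36 ± 0.36, did not. The part of endothelial cells in the Calcrl and Ramp2 signals was not tested.

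Tac1, the precursor gene of substance P and neurokinin A, had 5.68 on replicate 1 and 4.94 on replicate 2, a mean of 5.31 ± 0.52 (SD, n = 2), under the threshold by 1.06 and 1.25. The neurokinin receptor genes were also below it. Tacr1, whose product is the main substance P receptor, had 5.34 and 3.80, Tacr2 3.67 ± 0.07 and Tacr3 4.46 ± 0.41. Enterochromaffin cells, the serotonin-making endocrine cells of the epithelium, also make Tac1. Enteroendocrine markers passed on both arrays in 0 of 9 cases, against 31.7% of all named genes. Scg2, with 6.22 and 6.29, passed on replicate 2 only, where the threshold was lower. Chga had 5.32 ± 0.28 and Tph1, the enzyme of peripheral serotonin synthesis, 4.45 ± 0.10. Gip had 5.83 ± 0.06, Neurog3 4.32 ± 0.05 and Insm1 4.26 ± 0.01.

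Chat had 4.01 and 3.95, a mean of 3.98 ± 0.04 (SD, n = 2). It stood 2.73 and 2.24 under the threshold, and 1310 and 1287 of the 1678 chemoreceptor genes were higher. Slc18a3, the vesicular acetylcholine transporter gene, was at 3.30 ± 0.14, the esterase gene Ache at 4.42 ± 0.03 and the nicotinic receptor gene Chrna7 at 4.68 ± 0.09. None of the 12 other cholinergic genes measured passed on either array, where 31.7% of all named genes passed on both. The muscarinic receptor genes Chrm2 and Chrm3, named after their values were seen, came nearest at 6.24 ± 0.19 and 6.15 ± 0.26. Chat also marks tuft cells, the chemosensory cells of the epithelium. Tuft cell markers passed in 2 of 9 cases, against 31.7% of all named genes. The 2 were Alox5ap (8.37 ± 0.24), which leukocytes also express, and Dclk1 (7.04 ± 0.05). The lineage factor gene Pou2f3 (4.58 ± 0.06), the taste channel gene Trpm5 (4.63 ± 0.01), Il25 (4.32 ± 0.41) and Ltc4s (3.43 ± 0.06) did not pass.

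The members varied in how far the arrays differed. After centring, the size of the difference was 0.01 for Ramp1, 0.02 for Chat, 0.13 for Vipr2, 0.24 for Nmur1 and 0.37 for Vip. It was larger for Tac1 (0.69), Nmu (0.86) and Vipr1 (0.97), and 9.60%, 5.33% and 3.77% of named genes differed by more. None of the 8 members differed by over 1, against 3.45% of all named genes, and the members' median was 0.31, against 0.21 over all named genes. Each difference is that of 1 array against 1 and has no replicate check.

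**Figure D2:**
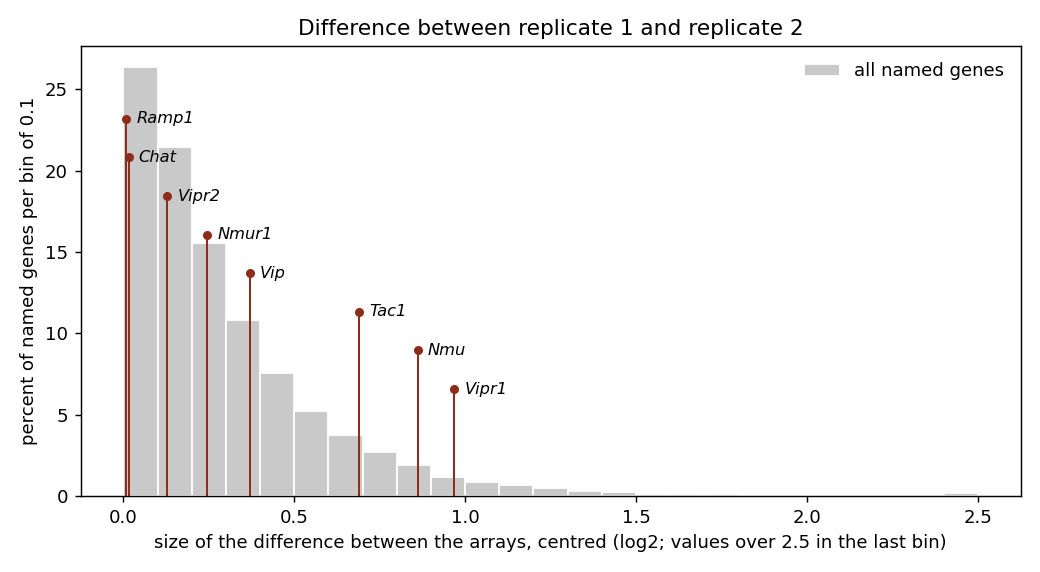
Size of the centred difference between the arrays on the log2 scale (horizontal axis) for all named genes, as the percent of genes in each bin of 0.1 (grey bars), with the members marked by stems whose height has no meaning. Vipr1, Nmu and Tac1 lie in the tail, from 0.69 to 0.97, and Ramp1 and Chat lie near 0.

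Few of the other listed neuropeptide genes passed, and of those that did only Npy had not been described above. Of 15 other precursor genes measured 2 passed on both arrays, against 31.7% of all named genes, and these were Adm and Npy, the neuropeptide Y gene, with 8.04 and 7.48 (7.76 ± 0.40). The median mean signal of this list was 5.09. Sst, the somatostatin gene, was above the threshold on replicate 1 alone, with 6.93 and 4.82. Of 22 other receptor genes 3 passed, Calcrl, Ramp3 and Adcyap1r1, and the list's median was 4.47. Of 3 adrenergic genes measured 0 passed, with mean signals from 4.02 to 4.87.

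Of 8 measured genes of enzymes that mature or degrade peptides 4 passed, against 31.7% of all named genes, with a median of 6.81 for the list. At the 99th percentile of the chemoreceptor genes 3 did. Pam, whose product amidates the ends of VIP, neuromedin U, CGRP and substance P, had 9.78 and 9.74 (9.76 ± 0.03), and Cpe, the carboxypeptidase that trims precursors, 8.90 and 8.24 (8.57 ± 0.46). Dpp4, a peptidase of T cells and brush border, had 7.66 ± 0.25 and the endothelin-converting enzyme gene Ece1 8.83 ± 0.26. The other 4, all below the threshold on both arrays, included Pcsk1, the proprotein convertase of endocrine cells, at 4.66 ± 0.14, named after its values were seen.

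The G proteins, kinases and factors of the next lists are shared by many G protein-coupled receptors. In the list of Gs and cyclic AMP signalling 12 of 18 measured genes passed, and the median signal was 7.48. At the 99th percentile 6 did. At the main threshold 31.7% of all named genes passed, and 38.9% of protein-coding genes outside the chemoreceptor set. The transcription factor gene Creb1 had 10.24 ± 0.23, the kinase anchor gene Akap13 9.99 ± 0.17, the CREB coactivator gene Crtc2 9.67 ± 0.12 and the regulatory subunit gene Prkar1a 9.69 ± 0.19, whereas the phosphodiesterase gene Pde4a had 5.13 ± 0.15 and the adenylyl cyclase gene Adcy4 5.19 ± 0.23. In the list of Gq and calcium signalling 6 of 11 measured genes passed, with a median of 7.56, and 4 did at the 99th percentile. Gnaq, Plcb3, Itpr1, Itpr3 and Nfatc1 of this list were not measured. The 6 above the main threshold were the calcineurin genes Ppp3cb (9.60 ± 0.24), Ppp3ca (9.08 ± 0.45) and Ppp3r1 (8.32 ± 0.11), the G protein gene Gna11 (8.34 ± 0.25), Nfatc3 (8.03 ± 0.59) and the calcium channel gene Itpr2 (7.56 ± 0.11). These components serve many receptors and many cell types. A list was made of cytokines that ILCs are reported to make or change in response to these peptides. Of its 7 measured genes 0 passed, against 31.7% of all named genes, with mean signals from 3.99 to 5.91, Il13 among them. Areg of this list was not measured. Il10 was not in the list, and it passed on both arrays with 10.82 ± 0.32.

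**Figure D3:**
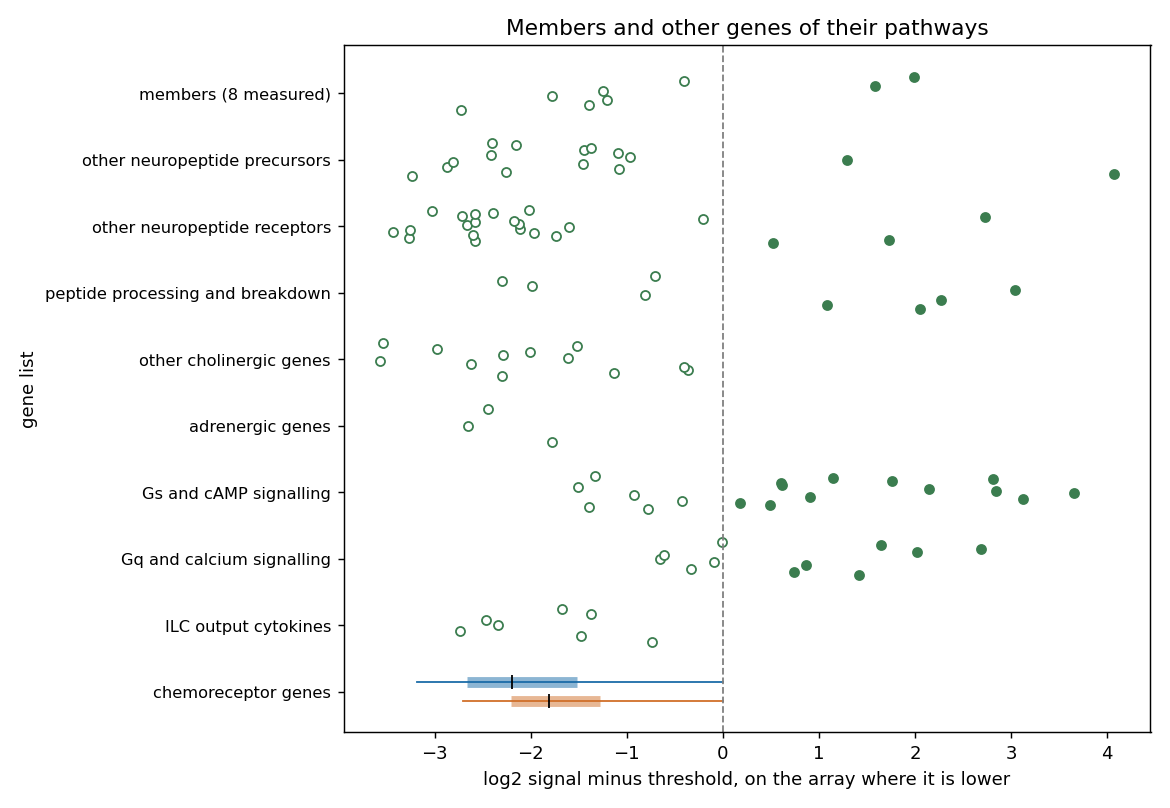
Log2 signal minus the threshold, on the array where this is lower (horizontal axis), for the members and each list of pathway genes, with filled circles for genes above the threshold on both arrays, open circles for the rest and vertical spread without meaning. The chemoreceptor genes are drawn as the 5th to 95th percentile with quartiles and median, replicate 1 above replicate 2. All 12 cholinergic genes and the 7 measured cytokines of the list, which does not hold Il10, lie left of the dashed line at 0. Of the Gs and cyclic AMP genes 12 of 18 lie right of it.

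Markers of other cell types also gave signal above background, and the labels give a purity of over 95%. Ptprc, the leukocyte antigen CD45, had 12.21 ± 0.10, Il10 10.82 ± 0.32 and Il7r 8.92 ± 0.56. Of all named genes 31.7% passed. All 8 measured stromal and smooth muscle markers passed, with Dcn at 19.31 ± 0.04 and Dpt at 19.83 ± 0.04. Dpt on replicate 2, at 19.86, was the highest value of either array. Epithelial markers passed in 10 of 11 cases, with Krt8 at 15.59 ± 0.24 and Epcam at 11.97 ± 0.16. Macrophage markers passed in 8 of 9, with C1qa at 10.77 ± 0.36, and T cell markers in 5 of 7, with Cd3e at 9.79 ± 0.16. B and plasma cell markers passed in 5 of 6, with Jchain at 17.79 ± 0.45. ILC3 markers passed in 3 of 10, near the share of all named genes, and mast cell markers in 0 of 7. The cell of origin of a transcript cannot be read from these arrays, and this holds for Vip, Vipr1 and Vipr2 too.

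**Figure D4:**
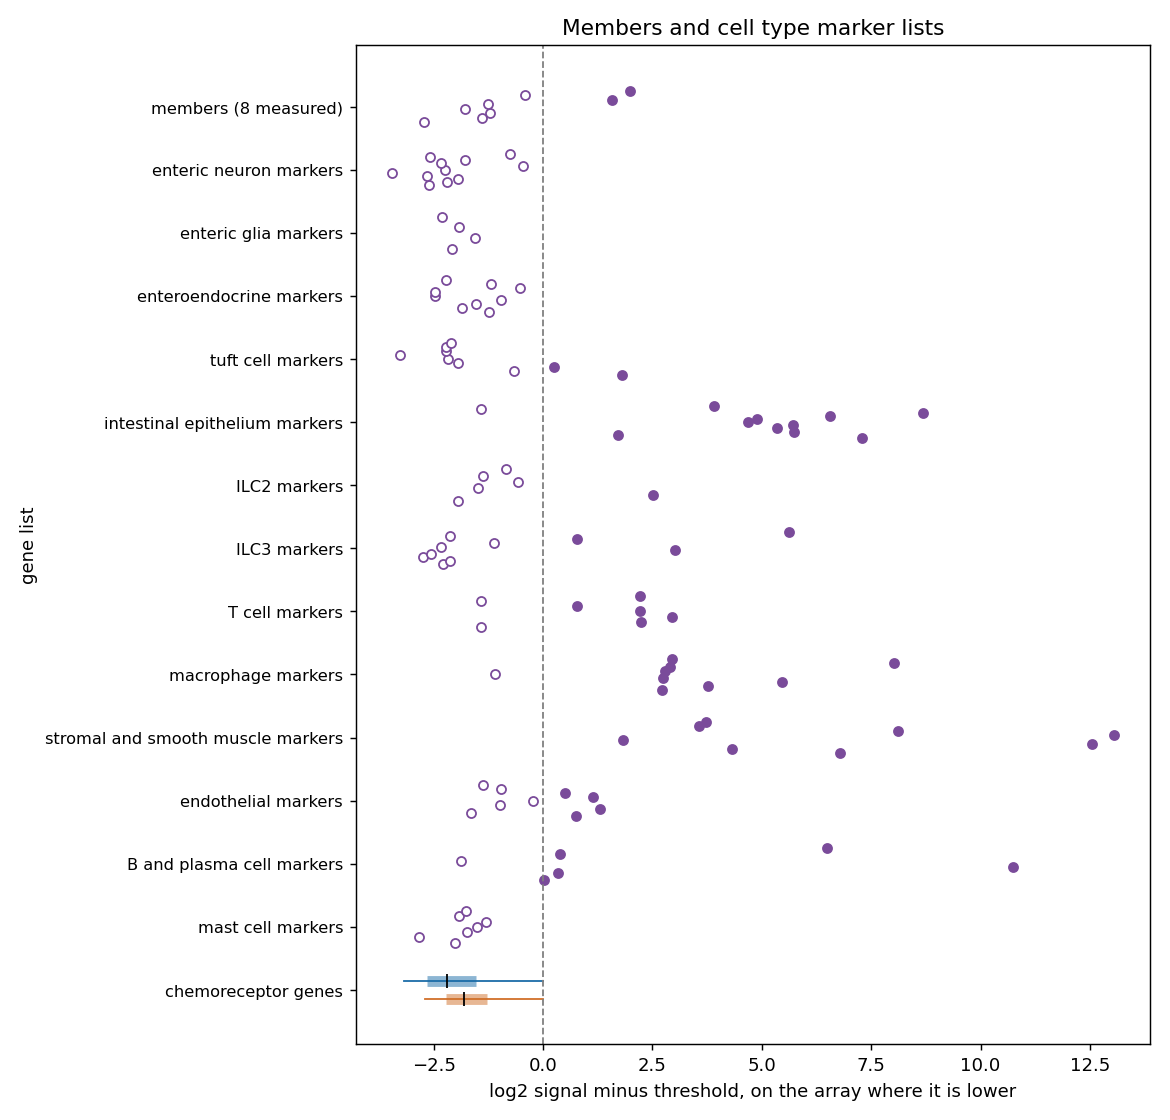
Log2 signal minus the threshold, on the array where this is lower (horizontal axis), for the members and each cell type marker list, with symbols as in the plot of pathway genes. Enteric neuron, glia, enteroendocrine and mast cell markers lie left of the dashed line at 0, while 10 of 11 epithelial and all 8 stromal markers lie right of it.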

How the data were processed

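Values of the 2 ILCreg arrays were read from the deposited table, with 1 value per feature and array. The authors' values spanned 2.10 to 19.86, and this range is the basis for reading them as log2 signal. The submitters' processing notes name MAS5, without saying which step it served; background correction, scaling and build are not stated there, and a scaling step would shift all signals of an array. Of 61344 features, 28573 had 1 gene symbol in the platform annotation and were used, 2014 had several and 30757 none. Symbols were updated through Entrez identifiers, of which the GRCm38.p6 gene table held 21104 of 21331. For a gene with several features the one of highest mean signal was used. Differences were centred on the median of all named genes. Python 3.11.15, numpy 2.4.6 and pandas 2.3.3 were used. The detection step was tested on data simulated from the chemoreceptor genes. That test cannot check whether these genes gauge the background of other genes. Intervals from depth do not apply, and the 2 arrays limit the precision.

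The members, the 8 pathway lists, the 13 marker lists and the settings were chosen with earlier results of these data known. Named were all members, their direct partners, the pathway genes above the threshold (for a list with more than 8, the 4 highest and 2 lowest), and the highest, lowest and defining genes of the marker lists; some of these are given only in the counts. No gene was named for a similar pattern, because 2 arrays of 1 group have no pattern across conditions. Alternatives were other thresholds, another background set, the median over features, quantile normalization and leaving out each replicate.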

Additional observations from a re-analysis of the deposited data

How the results depend on the processing

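Vip and Vipr2 were above the threshold, and Nmu, Nmur1, Tac1, Ramp1 and Chat were not, under all 7 alternatives run. Vipr1 passed at the 90th percentile of the chemoreceptor genes, by 0.17, and without replicate 1, by 1.07, where the main value was -0.40, so the count of members was 2 to 3 when a replicate was left out. The stricter 99th percentile left 5588 of 8971 named genes, 6 Gs and cyclic AMP genes, 1 tuft cell, 1 endothelial and 2 B and plasma cell markers; the 90th gave 2 cholinergic genes, 1 enteric neuron and 1 enteroendocrine marker. Without replicate 1 or replicate 2, the enteroendocrine count was 0 to 1. For replicate 2 minus replicate 1, quantile normalization gave -0.28 for Vipr2, 0.0532 for Ramp1 and 0.00256 for Chat. With it, Ramp1 and Chat thus also read higher on replicate 2. Values not centred were -0.0561 for Ramp1 and -0.0632 for Chat. No paired analysis was possible because there is only 1 group.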
